A study of Danio rerio with 18 samples.

Results

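The znf zinc finger genes on the long arm of zebrafish chromosome 4 are described here across CDK9 overexpression and MiR430 injection in early embryos. They were taken as genes whose symbol starts with znf, which lie on chromosome 4 with a start above 28000000 (GRCz11) and which have a row in the deposited comparisons. This gives 165 of the 17135 genes compared, and a further 6 genes that meet the name and position limits have no row there. The rule itself uses names, positions and the presence of a row, and no fold change or p. New RNA was enriched from whole wild type Danio rerio embryos given the nucleotide s4UTP, a label taken up by newly made RNA, and its modified bases were converted chemically (enriched SLAM-seq). Embryos were injected with s4UTP alone (called untreated), with s4UTP and MiR430 miRNA, or with s4UTP and cdk9 mRNA, and were collected at the 256-cell or the 1024-cell stage. Each of the 6 groups had 3 biological replicates. CDK9 is the catalytic part of P-TEFb, which releases paused RNA polymerase II into elongation. All groups, the untreated one included, received s4UTP, and no group received a control RNA, so an effect of injected RNA as such cannot be told apart from that of CDK9 or MiR430.

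Proteins of the C2H2 zinc finger class bind DNA through arrays of small zinc-coordinating fingers, and many vertebrate members repress transcription, often of transposable elements. The long arm of zebrafish chromosome 4 is known as a late replicating, repeat-rich and largely heterochromatic region that carries a large expanded set of such genes. Transcripts of this set are known to appear in a burst around zygotic genome activation, the start of transcription from the embryo's own genome. The mir-430 microRNA genes, a site of very strong early transcription, lie on the same arm. No role is given here for the individual znf genes, which are given by position, level and response.

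Values per library were not used here, because no sample label could be matched to the names of the count columns. Each gene therefore has 1 log2 fold change with its standard error (SE) per comparison according to the authors' deposited table, and 1 mean normalized count over all libraries. The fold changes look shrunken toward 0, most of all under MiR430 at the 256-cell stage. There the tested genes had a median SE of 0.02, and in the remaining comparisons one of 0.33 to 0.59. A gene was tested where the authors gave an adjusted p, and was called risen or fallen where it was under 0.05. Of the summed mean normalized count 96.8% belonged to genes of the mitochondrial genome, which limits the depth left for nuclear genes. As a check of the tissue, the early embryo genes nanog, pou5f3, sox19b, klf17, irx7, vox and mxtx2 had means of 306 to 3213, while of 6 genes of later tissues only hbbe1.1 had a row, with a mean of 0.412.

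The 165 genes ran from 28418829 to 77177950 on chromosome 4, with 90 on the plus and 75 on the minus strand. They had a median of 1709 bases of exon (range 242 to 14040), and 105 of them had 3 separate exon blocks. The set carried 137 distinct symbols, since 25 symbols were given to more than 1 gene, so gene IDs are printed where a symbol is shared. Of the 165 IDs 148 had a current symbol in the name table used here, which differed from that of the files for 25. Near-identical copies can split or lose reads in counting, and 36 genes overlapped another gene on the same strand. The level of each gene is therefore uncertain to an extent that these values do not show. The 3 genes just inside the position limit were znf1041, znf1067 and znf1059, with mean normalized counts of 14.1, 20.8 and 12.6 per the authors' deposited table. The only znf gene of chromosome 4 outside it was znf800b, far off at 3455146 to 3475397, with a mean of 36.1 as listed in the authors' deposited table. Its log2 fold changes under CDK9 were -0.28 (adjusted p = 0.62, SE 0.49) at the 256-cell and 0.01 (adjusted p = 0.985, SE 0.36) at the 1024-cell stage according to the authors' deposited table.

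Most of these genes were weakly represented, and a few carried much of the signal. The median mean normalized count was 7.55, against 9.84 over all genes compared, with a range of 0.343 to 691. There were 105 genes with a mean under 10, 44 with one from 10 to under 50 and 16 with one of 50 or more. The 8 most abundant genes held 52.0% of the summed mean of the set, which itself made up 0.978% of the nuclear total. Per kilobase of exon, znf1091 (ENSDARG00000112043, 67675471 to 67712607, minus strand) stood at 448 and znf1127 (ENSDARG00000093220, 59061652 to 59069694, plus strand) at 435 in mean normalized count, while the set's median was 4.32. The next were znf1125 (35982274 to 35989745) at 115, and the 2 genes named znf995 at 106 (ENSDARG00000112126, 54225677 to 54232197) and 97.0 (ENSDARG00000109864, 40218600 to 40225184) per kilobase. After them came znf1126 at 90.3, znf1058 at 85.4 and znf1092 at 83.0 per kilobase, values close to one another whose spread over libraries was not used here. These means include the libraries with injected CDK9, so a gene that is high only there also has a high mean.

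At the 256-cell stage the genes that rose under CDK9 overexpression were 12 of the 16 with a mean of at least 50 and 4 less abundant ones. That mean includes the CDK9 libraries, so the rise itself can place a gene in this range. Of the 165 genes 16 rose and 0 fell, which is 9.70% of the set risen against 2.68% of all genes compared, or 5.04% of those tested, of which 0.373% fell. The count was 9 with statistics recentred on their median over tested genes (3.31% of those tested) and 7 by the authors' own call rule (2.48%), which asks for a log2 fold change beyond 2 in size with an adjusted p below 0.01. Of the 73 members tested, 57 did not pass, and 1 of the 73 was lower at an unadjusted p under 0.05, as were 285 of all 9124 tested genes. The median log2 fold change of the tested members was 0.37, against 0.07 over all tested genes. Each tested member was kept by the authors' filter on its mean over all libraries, so the share among tested members (21.9%) is a description only.

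The largest rise with a size was that of znf1127 (ENSDARG00000093220), at 8.22 on the log2 scale (adjusted p = 0.000112, SE 1.98) per the authors' deposited table. The 2 genes named znf995 rose by 7.66 (ENSDARG00000109864, adjusted p = 0.000373, SE 2.09) and 6.13 (ENSDARG00000112126, adjusted p = 0.00222, SE 2.28) as listed in the authors' deposited table. They lie on chromosome 4 some distance from each other and share a symbol, and whether reads are split between them was not examined. The gene znf1138 (45274792 to 45281072) rose by 6.69 (adjusted p = 0.000512, SE 1.82) and znf1091 (ENSDARG00000112043) by 6.06 (adjusted p = 0.00113, SE 1.87) according to the authors' deposited table. Rises of 4.67 for znf997 (38937575 to 38943762, adjusted p = 0.00731, SE 2.44) and 4.90 for znf1098 (63466876 to 63769637, adjusted p = 0.0101, SE 3.04) completed the 8 smallest adjusted p together with znf1092, described below, per the authors' deposited table. The 15 risen genes with a size spanned 2.59 to 8.22 with a median of 4.67, and their SE of 1.82 to 3.44 were wide, so their order among themselves is not settled.

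The response at this stage went with abundance. All 16 genes with a mean of at least 50 had a log2 fold change above 0, where 69.5% of all genes in that range did. Of the 16 genes 12 rose, where 12.2% of all tested genes in that range rose. From 10 to under 50 there were 4 risen of 44 (2.71% of all tested genes in that range), and under 10 there were 0 of the 13 tested (0.62% of all tested genes in that range). Of these 13 genes 0 were higher at an unadjusted p under 0.05, where 38 of all 645 tested genes in that range were. The 4 abundant genes that did not pass were znf1058 at 1.60 (adjusted p = 0.0903, SE 2.50), znf1125 at 1.40 (adjusted p = 0.096, SE 1.91), znf1042 at 0.53 (adjusted p = 0.318, SE 0.84) and znf1015 (ENSDARG00000074298) at 0.22 (adjusted p = 0.687, SE 0.55) as listed in the authors' deposited table, of which the last pair was named after the values were seen. Across the 73 tested members, the Spearman correlation of the signed z statistic with the mean was 0.66, against 0.23 over all 9124 tested genes. Genes are not independent replicates, the mean includes the CDK9 libraries, and deeper genes have more power, so these are descriptions.

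**Figure D1:**
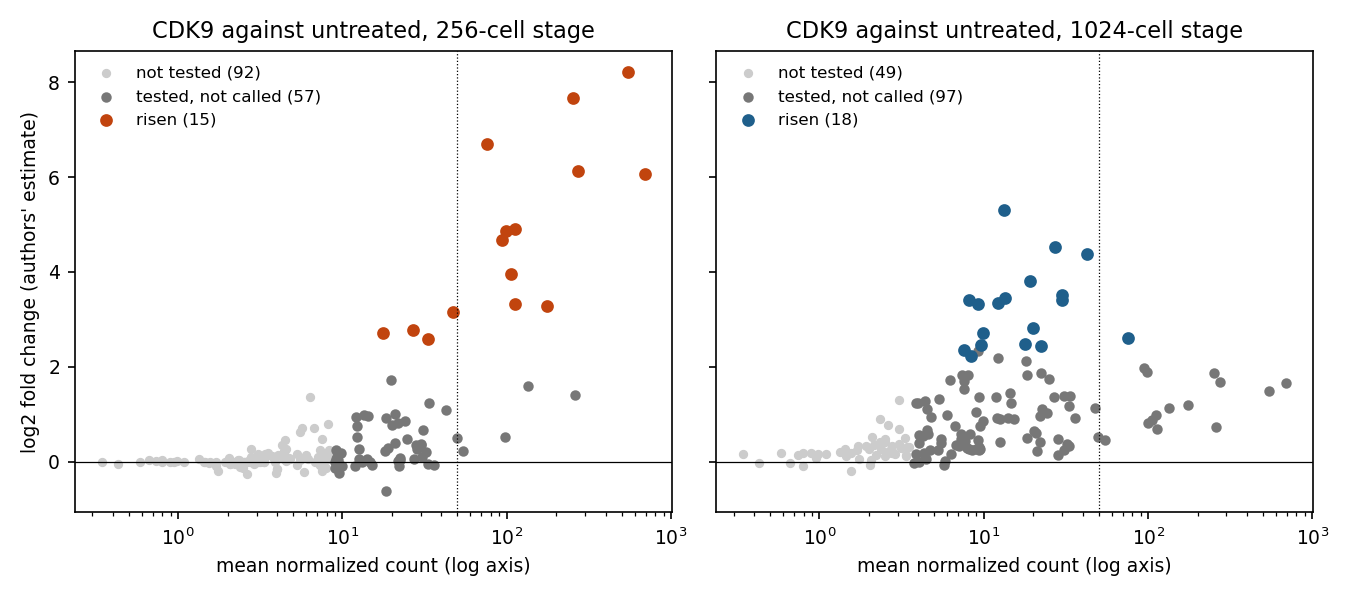
Log2 fold change of CDK9 against untreated embryos (vertical, the authors' estimate) against mean normalized count over all libraries (horizontal, log axis) for the chromosome 4 znf genes at the 256-cell (left) and 1024-cell stage (right), without znf1092. Points are genes, coloured by whether they rose, were tested and not called, or were not tested, and the risen ones lie mainly right of the dotted line (a mean of 50) at the 256-cell stage and mainly left of it at the 1024-cell stage. The mean includes the CDK9 libraries, so a rise itself can place a gene right of the line.

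At the 1024-cell stage, where genes of lower mean were also tested, the genes that passed had a lower median mean than at the 256-cell stage. That mean includes the CDK9 libraries of both stages, so a rise itself adds to it. Of the 165 genes 18 rose and 0 fell, 10.9% of the set against 4.03% of all genes compared, or 5.89% of those tested, of which 0.461% fell. With recentred statistics the count was 12 (4.42% of those tested), and by the authors' own call rule it was 7 (2.65%). Of the 116 members tested 98 did not pass, and 0 were lower at an unadjusted p under 0.05, where 446 of all 11724 tested genes were. The log2 fold change was above 0 in 157 of all 165 genes and below 0 in 7, while 57.6% of all genes compared were above 0. The median over all 165 was 0.53, against 0.05 for all genes compared. The same count at the 256-cell stage was 106 above 0, 37 below and 22 at 0, where 46.6% of all genes compared were above 0.

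The largest rise was that of znf1137 (ENSDARG00000086296, 44852270 to 44872722, minus strand), at 5.30 (adjusted p = 0.000483, SE 1.71) according to the authors' deposited table. Its span lies within that of znf1107 on the other strand, which also rose at this stage. The genes znf1051 (38001640 to 38008033) and znf1109 (ENSDARG00000092784, 60001731 to 60008646) rose by 4.52 (adjusted p = 0.000717, SE 1.29) and 4.37 (adjusted p = 0.000771, SE 1.24) per the authors' deposited table. A rise of 3.81 was listed for znf1101 (69545067 to 69550757, adjusted p = 0.00567, SE 1.56), and of 3.52 for znf1055 (33334774 to 33342454, adjusted p = 0.00357, SE 1.14), as listed in the authors' deposited table. The genes znf1026 (ENSDARG00000109604, adjusted p = 0.00781, SE 1.36) and znf1025 (adjusted p = 0.00317, SE 1.05) rose by 3.45 and 3.41, and znf973 by 3.32 (adjusted p = 0.0119, SE 1.49), according to the authors' deposited table. These were genes of low to middle level, and the 18 risen genes had a median mean normalized count of 15.6, against 109 for the 16 that rose at the 256-cell stage. The mean includes the CDK9 libraries, so the rises themselves add to both medians. The lowest mean tested was 3.64 at the 1024-cell and 8.45 at the 256-cell stage, so the stages differ in which genes could pass. Of the members with a mean under 10, 56 were tested at the 1024-cell and 13 at the 256-cell stage. By range of the mean, 6 of 56 tested genes under 10 rose (1.57% of all tested genes in that range), 11 of 44 from 10 to under 50 (5.07%) and 1 of 16 at 50 or more (13.8%). The signed z statistic still had a Spearman correlation of 0.34 with the mean across the 116 tested members, against 0.01 over all 11724 tested genes, as a description.

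The other 15 genes with a mean of at least 50 did not pass at the 1024-cell stage. All had log2 fold changes above 0, where 55.0% of all genes in that range did. With znf1138, which passed, included, 10 of the 16 were higher at an unadjusted p under 0.05. Of all 2390 tested genes in that range 535 were. With p-values adjusted over the genes in this range alone, 4 of the 16 passed, where 16.9% of all such genes did. For znf1127 (ENSDARG00000093220) the value was 1.49 (adjusted p = 0.136, SE 1.55), and for znf1091 (ENSDARG00000112043) 1.66 (adjusted p = 0.112, SE 1.57), per the authors' deposited table.

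The lists of genes risen under CDK9 at the 2 stages shared znf1138 and znf1102 (ENSDARG00000110787), which is 12.5% of the 16 risen at the 256-cell and 11.1% of the 18 risen at the 1024-cell stage. Over all genes 207 rose at both stages, which is 45% of the 460 and 30.0% of the 690 risen. The gene znf1138 rose by 6.69 and 2.61 (adjusted p = 0.0303, SE 1.43) and znf1102 by 2.71 and 2.48 (adjusted p = 0.0314, SE 1.32) at the 256-cell and 1024-cell stages as listed in the authors' deposited table. All 16 genes risen at the 256-cell stage were tested at the 1024-cell stage and were above 0 there, at 0.53 to 2.61 with a median of 1.28, where their median had been 4.76. The later call of znf1138 was lost with recentred statistics (adjusted p = 0.0537) and by the authors' rule. The gene znf1102, with an adjusted p of 0.025 at the 256-cell stage (SE 2.16), did not pass the authors' rule at either stage. Recentring keeps the order of the genes and lost znf1126 at the 256-cell stage (adjusted p = 0.0573), which ranked ahead of znf1102. At the 1024-cell stage it lost znf1138, also ranked ahead, so under either alternative the lists shared no gene. Of the 18 genes risen at the 1024-cell stage 15 were tested at the 256-cell stage. The median of the 18 had been 0.27 there, with 4 below 0 and 1 at 0, against 3.33 at the 1024-cell stage. Genes picked for a high value at 1 stage tend to be lower at the other, so these contrasts of medians are descriptions only. The stages have separate untreated libraries, so the difference could be tested, as 1 deposited log2 fold change minus the other, divided by their combined SE. Of 116 members entered 1 differed, namely znf1092 (0.136% of all tested genes differed). For znf1051 the difference was 4.46 (adjusted p = 0.319, SE 1.43), for znf1137 (ENSDARG00000086296) 5.30 (adjusted p = 0.53, SE 1.83) and for znf1127 (ENSDARG00000093220) -6.73 (adjusted p = 0.746, SE 2.52), each as 1024-cell minus 256-cell. By this test, which is approximate for shrunken estimates, a stage difference was not shown gene by gene beyond znf1092, whose fold has no size. Across the 73 members tested at both stages the Spearman correlation of the log2 fold changes was 0.08, against 0.33 over the 9124 genes tested at both, given as a description.

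**Figure D2:**
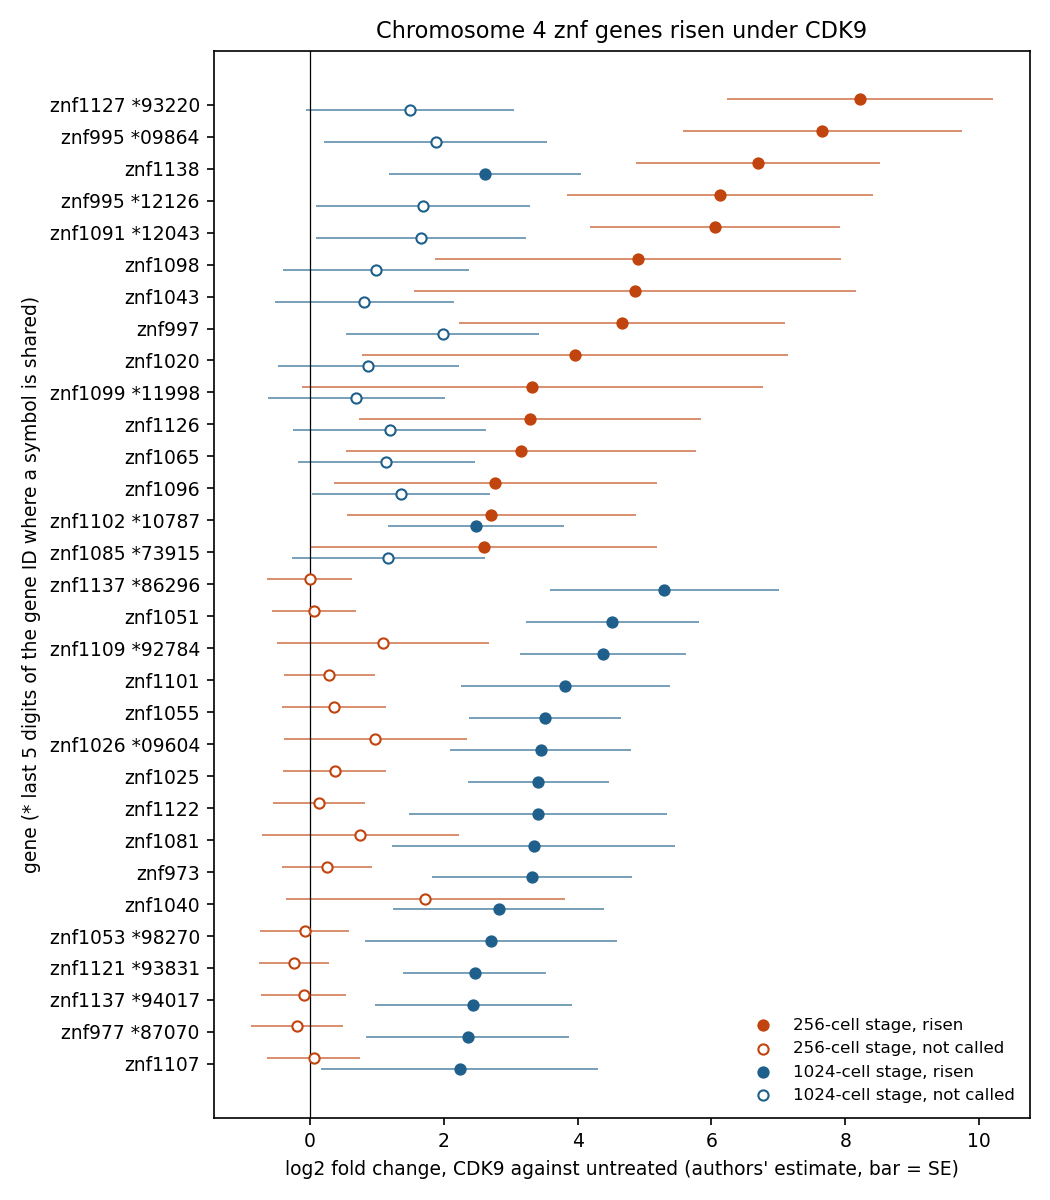
Log2 fold change (horizontal, the authors' estimate, bars are SE) under CDK9 at the 256-cell (red) and 1024-cell stage (blue) for the genes risen at either stage, without znf1092. Filled points passed the threshold, and the upper block, risen at the 256-cell stage, spans 2.59 to 8.22 there, above the lower block of genes risen at the 1024-cell stage only. The blocks were chosen by the calls shown, so the contrast between stages within a block is a description only.

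The gene znf1092 (ENSDARG00000110670, 38410690 to 38421217, minus strand) stood apart from the rest. It was listed at a log2 fold change of 20.67 (adjusted p = 1.4e-12, SE 2.70) under CDK9 and 17.48 (adjusted p = 3.1e-08, SE 2.62) under MiR430 at the 256-cell stage according to the authors' deposited table. Both comparisons use the same untreated libraries. With a mean of 121, the untreated group would hold at most 0.0013 and 0.0119 reads over its 3 libraries at these values, which is under 1 read, so neither listed fold has a size. At the 1024-cell stage it had 0.53 (adjusted p = 0.49, SE 1.15) under CDK9 and 0.13 (adjusted p = 0.812) under MiR430 per the authors' deposited table. The stage difference under CDK9 was -20.14 (adjusted p = 1.5e-08, SE 2.93), which has no size for the same reason. The span of znf1092 overlaps that of si:ch211-209n20.3 on the same strand.

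MiR430 at the 256-cell stage gave 1 call among the 165 genes, znf1092, and 0 fell, where 0.0323% of tested genes rose (0.0233% of all genes compared) and 0.0242% fell. The call is that of a gene whose fold has no size. The other 164 genes had absolute log2 fold changes of at most 0.0181 in this strongly shrunken comparison, which does not measure size, and 9 of them had an unadjusted p under 0.05. Of all 12373 tested genes 248 were higher and 238 lower at that unadjusted p. Of all 165 genes 63 were above 0, 59 below and 43 at 0, where 41.7% of all genes compared were above 0.

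MiR430 at the 1024-cell stage raised 4 of the 165 genes and lowered 0, which is 2.42% of the set against 0.636% of all genes compared, or 1.01% of those tested, of which 0.0558% fell. These were znf1109 (ENSDARG00000092784) at 2.94 (adjusted p = 0.0241, SE 1.41), znf1051 at 2.76 (adjusted p = 0.0289, SE 1.5), znf1055 at 2.43 (adjusted p = 0.0423, SE 1.33) and znf1137 (ENSDARG00000086296) at 1.94 (adjusted p = 0.0492, SE 1.81) as listed in the authors' deposited table. The call of znf1055 was lost with p-values adjusted over every gene with a p (adjusted p = 0.0669), as was that of znf1137 (adjusted p = 0.0778). With recentred statistics 2 passed as well (0.716% of tested genes), and by the authors' own rule 0 did (0.195%). Each of the 4 also rose under CDK9 at this stage, at the values above. How many of all 109 genes risen under MiR430 did so was not worked out, so this overlap is a description only. The log2 fold change was above 0 in 152 of the 165 genes and below 0 in 12, where 53.0% of all genes compared were above 0. By range of the mean, 0 of 39 tested genes under 10 rose (0.176% of all tested genes in that range), 4 of 44 from 10 to under 50 (0.887%) and 0 of 16 at 50 or more (2.13%). The medians over the set were 0.13 under MiR430 and 0.53 under CDK9. The 18 genes risen under CDK9 were all above 0 under MiR430, at 0.23 to 2.94 with a median of 1.26. The same share over all genes risen under CDK9 was not worked out. Both comparisons share the 3 untreated libraries of this stage, so their likeness is not independent.

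**Figure D3:**
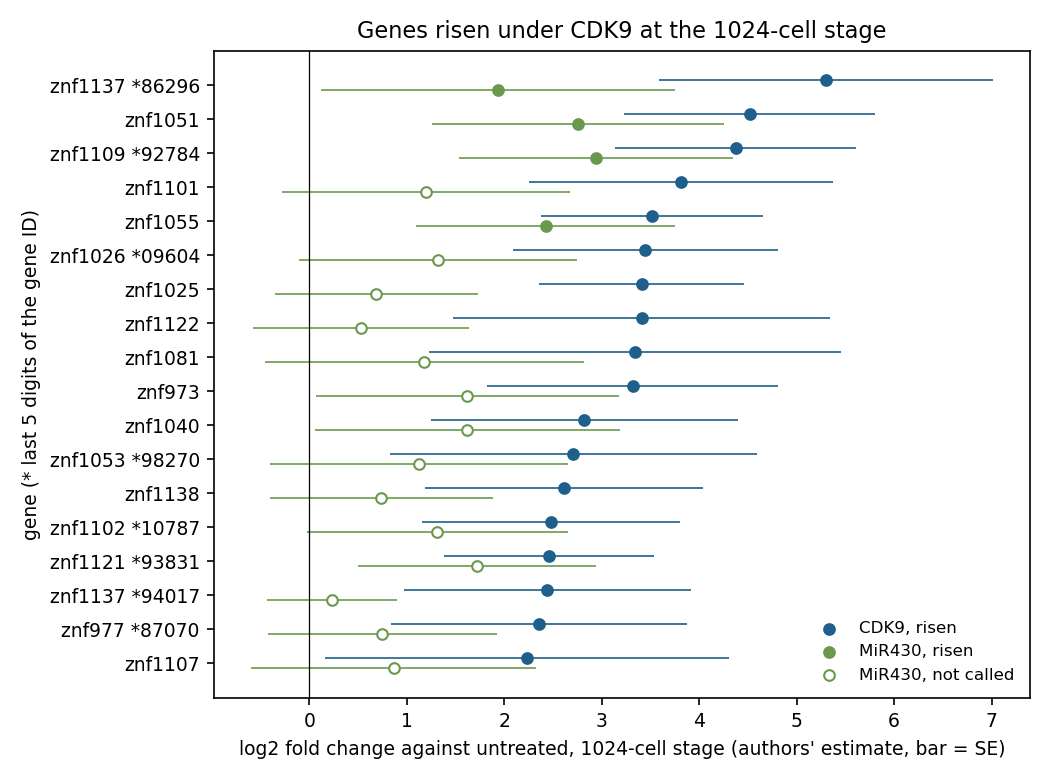
Log2 fold change (horizontal, the authors' estimate, bars are SE) of the 18 genes risen under CDK9 at the 1024-cell stage, under CDK9 (blue) and MiR430 (green) against the same untreated libraries. All 18 green points lie above 0, from 0.23 to 2.94, and the 4 filled ones passed the threshold. The same share over all genes risen under CDK9 was not worked out.

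Positions of the risen genes along the arm are given for the 2 stages as counts, and a difference between the stages was not tested. The gene nearest to the 54 mir-430 genes (28693371 to 28709534) was znf1059 (28814850 to 28822393), 105 kb away, followed by znf1067, znf1041 and, 823 kb away, znf1140. None of these 4 was called in any of the 4 comparisons. At the 256-cell stage znf1067 had 1.00 (adjusted p = 0.154, SE 2.12), while znf1041 and znf1059 both had 0.06 (adjusted p = 0.902 and 0.9) according to the authors' deposited table, and znf1140 was not tested. Within 10 Mb of the mir-430 genes 3 of 23 tested genes rose at the 256-cell and 5 of 29 at the 1024-cell stage under CDK9. From 10 to 20 Mb these counts were 4 of 15 and 9 of 28, and from 20 to 30 Mb 2 of 11 and 0 of 20. From 30 to 40 Mb 7 of 16 and 1 of 26 rose, and beyond 40 Mb 0 of 8 and 3 of 13. Over all genes 5.04% of those tested rose at the 256-cell and 5.89% at the 1024-cell stage. Among the 72 pairs of neighbouring tested members at the 256-cell stage 6 had both genes risen and 20 had 1 risen, and among the 115 pairs at the 1024-cell stage these were 5 and 26. The 5 include znf1107 and znf1137 (ENSDARG00000086296), whose spans overlap on opposite strands. No expected number of such pairs was worked out.

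**Figure D4:**
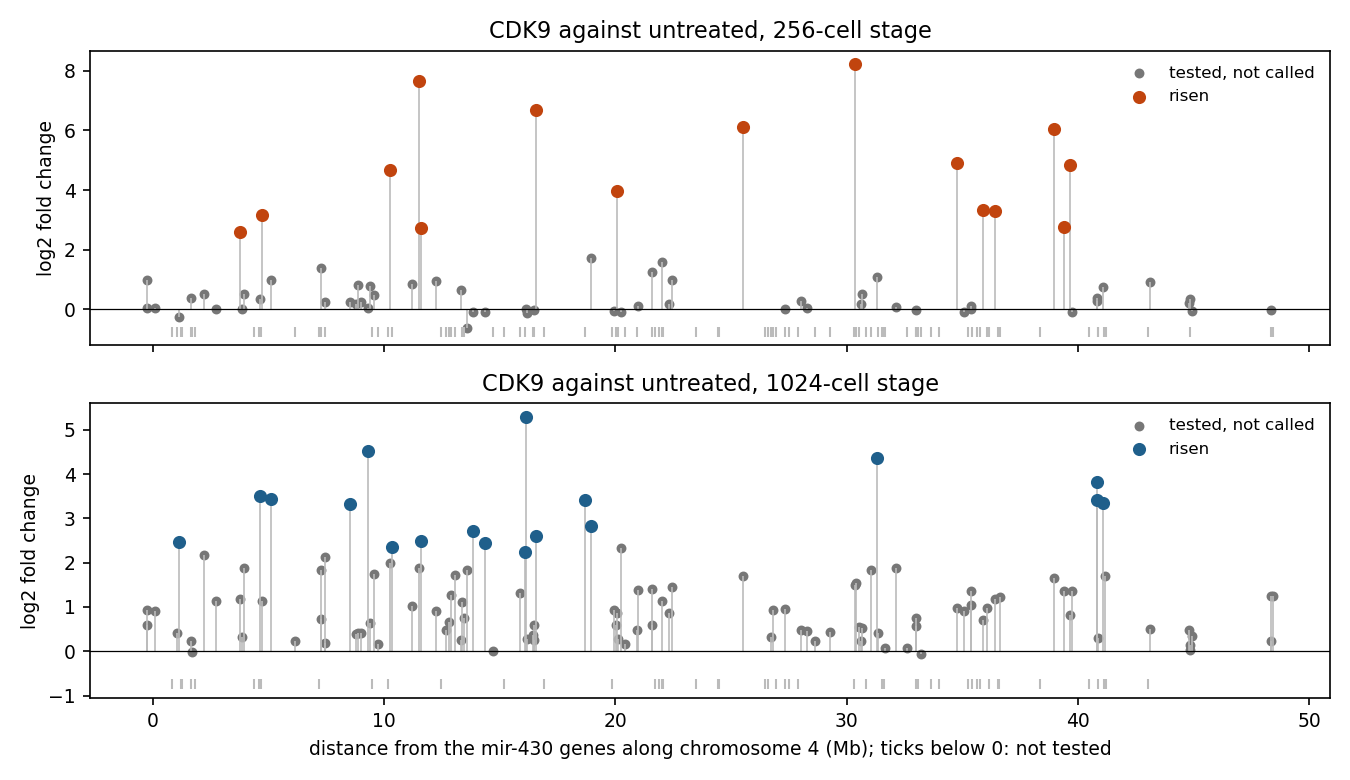
Log2 fold change under CDK9 (vertical, the authors' estimate) of the tested chromosome 4 znf genes against distance from the mir-430 genes along the chromosome (horizontal, Mb), at the 256-cell (top) and 1024-cell stage (bottom), without znf1092. Coloured points are risen genes, grey points tested genes that were not called and ticks untested genes. From 30 to 40 Mb 7 of 16 tested genes rose at the 256-cell and 1 of 26 at the 1024-cell stage. From 10 to 20 Mb these were 4 of 15 and 9 of 28. Over all genes 5.04% and 5.89% of those tested rose, and a difference between the stages was not tested.

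Gene structure and strand, which the choice of genes did not use, were set beside the calls without a test. The 16 genes risen at the 256-cell stage had a median exon length of 2292 bases and 8 of them had 3 exon blocks, while the 18 risen at the 1024-cell stage had 1616 bases and 15 had 3 blocks. The 84 tested genes risen at neither stage had a median of 1774 bases, and 53 had 3 blocks. Of the genes risen at the 1024-cell stage 15 lay on the plus and 3 on the minus strand, against 10 and 6 at the 256-cell stage, and 45 and 39 among those risen at neither. Of 6 symbols with more than 1 tested gene at the 256-cell stage 1 had every such gene risen, 2 had some and 3 had none, and of 13 at the 1024-cell stage these were 1, 3 and 9. A shared symbol does not show that genes are copies, since the current symbols of the 2 znf1137 genes differ. Both znf995 genes rose at the 256-cell and both znf1137 genes at the 1024-cell stage, where ENSDARG00000094017 rose by 2.44 (adjusted p = 0.0389, SE 1.47) per the authors' deposited table. The second znf1127 (ENSDARG00000116177, mean 2.33) and the second znf1091 (ENSDARG00000100434, mean 2.22) were too sparse to be tested under CDK9.

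Clone-named genes of the same arm and znf genes elsewhere in the genome are set beside the chromosome 4 znf genes as values, since the differences between these sets were not tested. The sets follow the deposited symbols, and the current symbols of znf1137 (ENSDARG00000086296) and znf1051, among other members, are clone names. Among 422 clone-named genes of chromosome 4 above the same position, whose symbols do not name a family, 31 rose and 0 fell under CDK9 at the 256-cell stage (7.35%) and 31 rose and 0 fell at the 1024-cell stage (7.35%), where 2.68% and 4.03% of all genes compared rose. Only 122 and 193 of them were tested, of which 25.4% and 16.1% rose, against 21.9% and 15.5% of the tested chromosome 4 znf genes. With a mean of at least 50, 17 of 24 of them rose at the 256-cell and 10 of 24 at the 1024-cell stage. The mean includes the CDK9 libraries, so a rise itself can place a gene in this range. Of 164 znf genes outside chromosome 4, 5 rose and 1 fell at the 256-cell stage (3.05% risen) and 11 rose and 1 fell at the 1024-cell stage (6.71% risen). With a mean of at least 50, 3 of 30 of these rose at the 256-cell and 2 of 30 at the 1024-cell stage. Under CDK9 at the 1024-cell stage 69.5% of them had a log2 fold change above 0, against 87.9% of the clone-named genes and 95.2% of the chromosome 4 znf genes. Under MiR430 at that stage 6 clone-named genes rose (3.87% of those tested) and 3 znf genes outside chromosome 4 (2.48%). The share was 4.04% of tested chromosome 4 znf genes and 1.01% of all tested genes. Above 0 there were 79.4% of the clone-named genes, 71.3% of the znf genes outside chromosome 4 and 92.1% of the chromosome 4 znf genes.

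**Figure D5:**
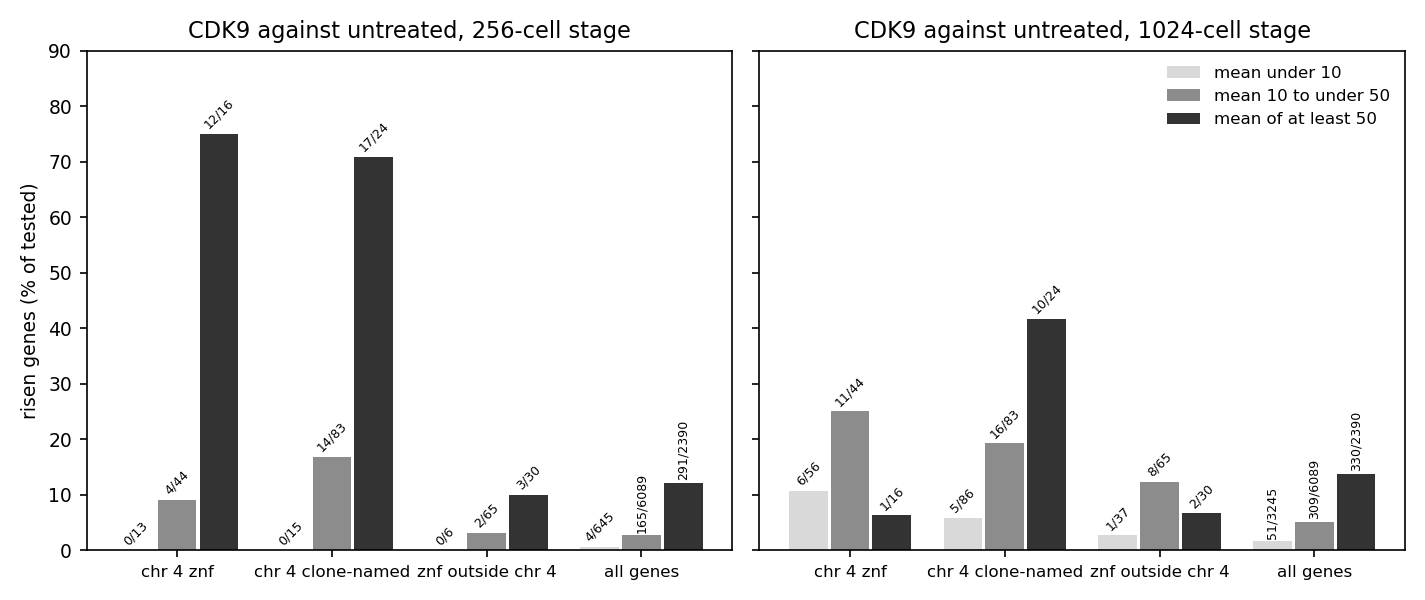
Percent of tested genes risen under CDK9 (vertical, bars from 0) at the 256-cell (left) and 1024-cell stage (right) for chromosome 4 znf genes, clone-named genes of the same arm, znf genes outside chromosome 4 and all genes, split by mean normalized count. Numbers above the bars are risen over tested genes, and at a mean of 50 or more 12 of 16 chromosome 4 znf genes and 17 of 24 clone-named genes rose at the 256-cell stage, where 12.2% of all tested genes did. The mean includes the CDK9 libraries, so a rise itself can place a gene in the highest range.

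Genes of heterochromatin formation in vertebrates were counted beside the set, among them histone H3K9 methyltransferases, heterochromatin proteins, DNA methylation factors, chromatin assembly factors and other repressor and chromatin genes. Too few of them were called to compare their shares with the background. Of 22 listed genes, all with a row, 20 were tested under CDK9 at the 256-cell stage. Of these 0 rose and 1 fell, where 5.41% of all tested genes were called, 5.04% risen and 0.373% fallen. At an unadjusted p under 0.05, 1 was higher and 2 were lower, as were 1282 and 285 of all 9124 tested genes. The 2 lower listed genes were setdb1b and suv39h1a, another H3K9 methyltransferase gene, at -1.30 (adjusted p = 0.0634, SE 1.21) according to the authors' deposited table. The gene suv39h1a was not called and was named after the values were seen. The H3K9 methyltransferase gene setdb1b fell by 1.07 on the log2 scale (adjusted p = 0.016, SE 0.40), per the authors' deposited table. Later, at the 1024-cell stage, 1 rose and 0 fell (6.35% of tested genes were called, 5.89% risen and 0.461% fallen). This was the chromatin assembly gene chaf1a at 0.84 (adjusted p = 0.0375, SE 0.46) according to the authors' deposited table. Under MiR430 0 of the 22 passed at either stage (0.0566% and 1.07% of tested genes were called at the 256-cell and 1024-cell stages), with 0 at an unadjusted p under 0.05 at the 256-cell stage and 2 higher at the 1024-cell stage. At that unadjusted p 248 of all 12373 tested genes were higher and 238 lower at the 256-cell stage. At the 1024-cell stage 958 of all 10748 tested genes were higher.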

How the data were processed

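The submitters' processing notes name DESeq2, featureCounts, HISAT, Picard, SAMtools and Trimmomatic and the build GRCz11. Versions and settings are not given in the sources used here.

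Per the file headers, the authors deposited 4 comparison tables of 17135 genes, 1 for each injection and stage against untreated embryos, with a mean normalized count (a signal averaged over libraries, identical in the 4 tables), log2 fold changes with standard errors, and p-values with adjusted p-values. That the log2 fold changes are shrunken is read from the deposited values. Of the deposited count table, 18 columns of counts match no sample label and were not used; only symbols, positions, strand and exon length were, so the planned edgeR tests were not run and depth per library was not used. The deposited adjusted p matched a Benjamini-Hochberg adjustment over the tested genes.

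A gene was called at an adjusted p under 0.05, over the whole table. A fold was taken to have no size where it puts less than 1 read in the 3 lower libraries when the gene's whole total over 18 libraries is given to the higher ones. This is an upper limit for the lower libraries, so a fold that passes is not thereby shown to be measured well. The stage difference under CDK9 was tested two-sided (normal, Benjamini-Hochberg over 11724 genes). A check on simulated data drew unshrunken values with the deposited SE, so it cannot show how the test behaves on shrunken estimates. The estimates look shrunken, so this test is approximate. Genes and lists were chosen with earlier results of these data known. Genes named were the 8 risen and 8 fallen with the smallest adjusted p per comparison, the 8 with the highest mean, up to 5 per direction for the stage difference, the 3 next to the position limit and the 4 nearest to the mir-430 genes. Some genes were named outside this rule, among them znf1102, znf1107, znf1137 (ENSDARG00000094017) and suv39h1a. No sequence is shown, since no sequence table was used. Alternatives were the authors' call rule, other sets of genes to adjust over, minimum means of 10 and 50, recentred statistics and other members. Python 3.11.15, numpy 2.4.6, pandas 2.3.3, scipy 1.17.1 and matplotlib 3.10.9 were used.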

Additional observations from a re-analysis of the deposited data

Results flagged for a closer look

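The response of znf1092 to CDK9 differed between the stages by -20.14 on the log2 scale (1024-cell minus 256-cell, SE 2.93, adjusted p = 1.5e-08). The authors' deposited table lists 20.67 for the 256-cell stage, which implies an untreated level under 1 read over 3 libraries, so the difference has no size. With the difference of signed z statistics it also passed (adjusted p = 0.0069). Those statistics come from the deposited p-values of the same comparisons, so this is not independent of the first result.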

How the results depend on the processing

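No paired analysis was possible because the count columns carry no sample names, and for the same reason leaving out replicates, other normalizations and count filters were not run; the alternative on zinc finger matches in proteins was not run without a protein table. Counts of risen genes are given in the order CDK9 at the 256-cell stage, CDK9 at the 1024-cell stage and MiR430 at the 1024-cell stage, where they were 16, 18 and 4. By the authors' own rule (adjusted p under 0.01 and absolute log2 fold change above 2) they were 7, 7 and 0. With recentred statistics they were 9, 12 and 2. Adjusted over every gene with a p they were 13, 15 and 2. With a mean of at least 50 they were 14, 4 and 0, with only 16 members left to test. With a mean of at least 10 they were 16, 14 and 4. Among 112 members with a symbol of their own, an alternative chosen after seeing the data, they were 9, 10 and 2, and among 110 that overlap no other gene, also chosen afterwards, 11, 14 and 3. The latter set leaves out znf1092, the only MiR430 call at the 256-cell stage, so that count went from 1 to 0; it was 1 otherwise. Shares over all genes were not worked out for a mean of at least 10 or for adjustment over every gene with a p. With a mean of at least 50, 16.9% of all such genes rose under CDK9 at the 1024-cell stage. The shares of the other comparisons were not worked out. That mean includes the CDK9 libraries, so a rise itself can place a gene in this range. The count of stage differences was 1 under every alternative run, and no member fell under any. Of 23 calls of named genes, 8 were lost by the authors' rule, 4 with recentred statistics and 2 adjusted over every gene with a p; none changed direction. Where not stated, the cause was not tested. Depth per library was not used here, and 92 of the 165 members under CDK9 at the 256-cell stage had no adjusted p.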
